A study of Mus musculus with 47 samples.

Results

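A set of 8 genes that move iron through cells was followed across leukaemic mouse spleens. The set holds the receptor Tfrc, the ferrireductase Steap3, the transporters Slc11a2, Slc25a37, Abcb10 and Flvcr1, the iron exporter Slc40a1 and the haem-degrading enzyme Hmox1. They were chosen by name, as 8 of the 18193 genes measured on the arrays, and each was read from the probe set that belonged to it alone and had the highest mean over all 47 arrays. All 8 were found and all 8 passed the filter on low values, which asked for a level above log2 5 in at least 9 arrays.

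RNA came from the spleens of 47 mice, 1 Affymetrix Mouse Genome 430 2.0 array per mouse, and all were labelled as terminal myeloid leukaemia of an undifferentiated type. All animals carried Tg(ACTB-cre)2Mrt, a Cre recombinase under the β-actin promoter, which is active in nearly all cells, and Gt(ROSA)26Sortm2(sb11)Njen, a Sleeping Beauty transposase. The transposon itself came from 1 of 2 lines, TgTn(sb-T2/Onc2)6113Njen (21 mice) or TgTn(sb-T2/Onc2)6070Njen (26 mice). A tumour was labelled as having an insertion in Erg, an ETS family transcription factor gene, in 26 mice (9 of line 6113 and 17 of line 6070) and as having none in 21 mice (12 of line 6113 and 9 of line 6070). The age label, whose unit is not given, had a median of 74 in the Erg label group (range 49 to 97) and 54 in the group without the label (range 32 to 89). Mice were labelled female in 25 cases and male in 22. No spleens of healthy mice were used here, so all comparisons are among leukaemic spleens.

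The sex labels stood apart from the data: 23 arrays matched their label in the transcripts of the sex chromosomes and 24 did not, although the number of arrays with Xist above log2 7, 25, equalled the number labelled female. The mean of the Y-linked Eif2s3y, Kdm5d and Uty was lower on each of those arrays than on any of the others. Whether the Erg, line, age and identifier labels belong to the arrays they stand with was not tested. If they do not, no comparison by a label, and no value within a line or identifier number, says anything of that label, and a lack of calls there does not show that the groups are alike. Groups are therefore named by their labels throughout. Erg label differences are also given for the 23 matching arrays, which does not settle this doubt. Relations between genes over all arrays need no label. Array medians lay between 5.19 and 5.24, and the 25th percentile of all values was 5.08 on the log2 scale, so values near 5 lie at the common floor of the arrays and differences of dim genes are compressed. Markers of red cell precursors were present (14 of 22 measured erythroid markers had a median above log2 7), as were macrophage markers (7 of 20), including Csf1r, C1qa and Vcam1. On no array were 8 of the 20 macrophage markers above log2 7, among them Adgre1, which encodes the macrophage antigen F4/80. Itgam, Vsig4 and Siglec1, also among these 8, had medians of 5.10, 5.11 and 5.30, near the floor. Each of the 20 counted equally in the macrophage marker mean used below. None of the 11 B cell markers or of the 13 T and NK cell markers had a median above this level, but 8 of the 11 exceeded it on 6 to 15 arrays and 10 of the 13 on 4 to 15 arrays. The surrogate light chain gene Vpreb1 did so on 15 arrays, up to 11.06, and Gzma, a protease gene of cytotoxic cells, on 10 arrays, up to 10.88.

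Most of the body's iron is carried in haemoglobin and passes through 2 cell types in turn. Red cell precursors take up transferrin-bound iron through the transferrin receptor, reduce it in endosomes, carry it into the cytosol and then into mitochondria, where it is built into haem. Macrophages of the spleen and liver engulf old red cells, open the haem ring with haem oxygenase and return the iron to plasma through ferroportin. Mouse spleen is a site of both processes, since it makes red cells throughout life.

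RefSeq promoter windows of build GRCm38.p6, from 250 bases before to 50 after an annotated start, were available for 4 of the 8 members (Tfrc, Steap3, Abcb10 and Flvcr1), with 8 windows between them. Those of Tfrc and Abcb10 are shown because these genes moved together and followed the erythroid markers, and that of Flvcr1 because it did not follow them. The Tfrc window lies at chr16:32608646-32608945 on the plus strand, that of Abcb10 at chr8:123983073-123983372 on the minus strand and that of Flvcr1 at chr1:191026141-191026440 on the minus strand. Capitals mark the GATA letters (either AGATAA or AGATAG or else TGATAA or TGATAG), the CACCC-type letters CCNCNCCC and the hypoxia-element core ACGTG, each searched on both strands, with matches that overlap run together.
Tfrc: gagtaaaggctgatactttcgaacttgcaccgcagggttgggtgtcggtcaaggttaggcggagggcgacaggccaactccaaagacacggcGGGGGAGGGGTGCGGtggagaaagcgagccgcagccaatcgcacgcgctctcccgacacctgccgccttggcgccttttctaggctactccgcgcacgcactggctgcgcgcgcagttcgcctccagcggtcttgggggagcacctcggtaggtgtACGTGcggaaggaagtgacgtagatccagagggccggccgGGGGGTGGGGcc
Abcb10: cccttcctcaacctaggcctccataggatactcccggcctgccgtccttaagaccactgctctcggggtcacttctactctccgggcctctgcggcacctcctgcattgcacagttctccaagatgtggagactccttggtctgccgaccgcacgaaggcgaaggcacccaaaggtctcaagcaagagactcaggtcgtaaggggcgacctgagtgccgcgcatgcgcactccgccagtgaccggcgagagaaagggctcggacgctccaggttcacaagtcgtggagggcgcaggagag
Flvcr1: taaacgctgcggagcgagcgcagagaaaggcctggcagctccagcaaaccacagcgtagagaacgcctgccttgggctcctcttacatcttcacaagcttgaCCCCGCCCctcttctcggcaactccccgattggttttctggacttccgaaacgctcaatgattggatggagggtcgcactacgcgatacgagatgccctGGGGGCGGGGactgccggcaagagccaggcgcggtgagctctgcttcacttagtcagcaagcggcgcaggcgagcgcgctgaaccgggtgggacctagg
The Tfrc window held 1 ACGTG, the core of the element through which hypoxia-inducible factors act, and 5 CACCC-type matches. The Flvcr1 window held 3 CACCC-type matches, and the Abcb10 window none of these letters. Of all 32817 windows of this length, 19.6% held ACGTG, 49.5% a CACCC-type match and 29.8% a GATA match. Of the 8 member windows, 2 held ACGTG (both of Tfrc, which overlap), 6 a CACCC-type match and 1 (of Steap3) a GATA match. The ETS letters GGAAG stood in 8 of the 8 member windows and in 71.4% of all windows, and TGACNNNGC, the antioxidant response letters, in 1 of the 8 (of Flvcr1, where it overlapped a CACCC-type match) and in 12.4% of all. These matches describe the letters and are not binding sites.

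Tfrc, the cell surface receptor for iron-loaded transferrin, was read at a log2 level above 7 on all 47 arrays. Its lowest, median and highest levels were 8.48, 9.71 and 10.84 in the 26 Erg label spleens, against 8.66, 9.88 and 11.26 in the 21 spleens without the label. The 2 groups overlapped over nearly their whole range. Over all arrays the SD was 0.54, and the highest array lay 6.89-fold above the lowest. The other probe sets of the gene were dimmer (medians 5.89 and 5.29) and followed the one used with r = 0.69 and 0.52.

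Steap3, the endosomal ferrireductase of erythroid cells, ran only from 5.18 to 5.69 (median 5.40, SD 0.12). Slc11a2, which encodes the divalent metal transporter DMT1 that carries reduced iron out of endosomes, ran from 5.50 to 6.06 (median 5.84, SD 0.14). Both stayed below log2 7 on all arrays and close to the floor, so their differences are compressed and their relations rest on small shifts. Among the 4 Slc11a2 probe sets, a second with a similar median of 5.80 followed the one used with r = 0.84. The others, with medians of 5.51 and 5.24, had r = 0.54 and 0.44 with it. For Steap3 the other probe sets, with medians of 5.07 and 5.06, followed the one used with r = 0.38 and 0.68.

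Slc25a37 encodes mitoferrin 1, which imports iron into the mitochondria of red cell precursors, and it had the widest range of the 8 genes. Its lowest, median and highest levels were 6.57, 8.13 and 10.07 in the Erg label spleens, against 6.14, 8.31 and 10.35 in the spleens without the label. The SD over all arrays was 0.87, and the highest array lay 18.5-fold above the lowest. It was read from its only single-gene probe set and was above log2 7 on 45 arrays.

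Abcb10, a mitochondrial inner membrane transporter that stabilises mitoferrin 1 and is needed for haem production in erythroid cells, had its lowest, median and highest levels at 6.16, 7.85 and 8.86 in the Erg label spleens. The spleens without the label had 6.25, 7.46 and 8.40. Again the groups overlapped, with the lowest arrays of both near log2 6. A second probe set with a median of 6.59 followed the one used with r = 0.81.

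Flvcr1, a cell surface exporter of haem, varied little: 6.54 to 7.45 (median 7.15, SD 0.24), a 1.88-fold range. It was above log2 7 on 33 arrays. The other probe set of Flvcr1, with a median of 5.23 near the floor, had r = 0.27 with the one used.

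Slc40a1 encodes ferroportin, the only known cellular iron exporter of mammals, and was above log2 7 on 45 arrays. In the Erg label spleens its lowest, median and highest levels were 6.82, 8.09 and 8.45, and in those without the label 6.77, 8.24 and 8.61. In each group most arrays stood near the median and a few lay far below it. The other probe set, with a median of 6.75, followed the one used with r = 0.74.

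Hmox1, the inducible haem oxygenase, was above log2 7 on only 3 arrays. Its lowest, median and highest levels were 5.86, 6.47 and 7.68 in the Erg label spleens, against 5.66, 6.46 and 6.95 in the spleens without the label. The 3 arrays above log2 7 were all of the Erg label group, while the 2 medians were nearly equal. Levels of different genes are not compared here, since each probe set has its own scale.

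**Figure D1:**
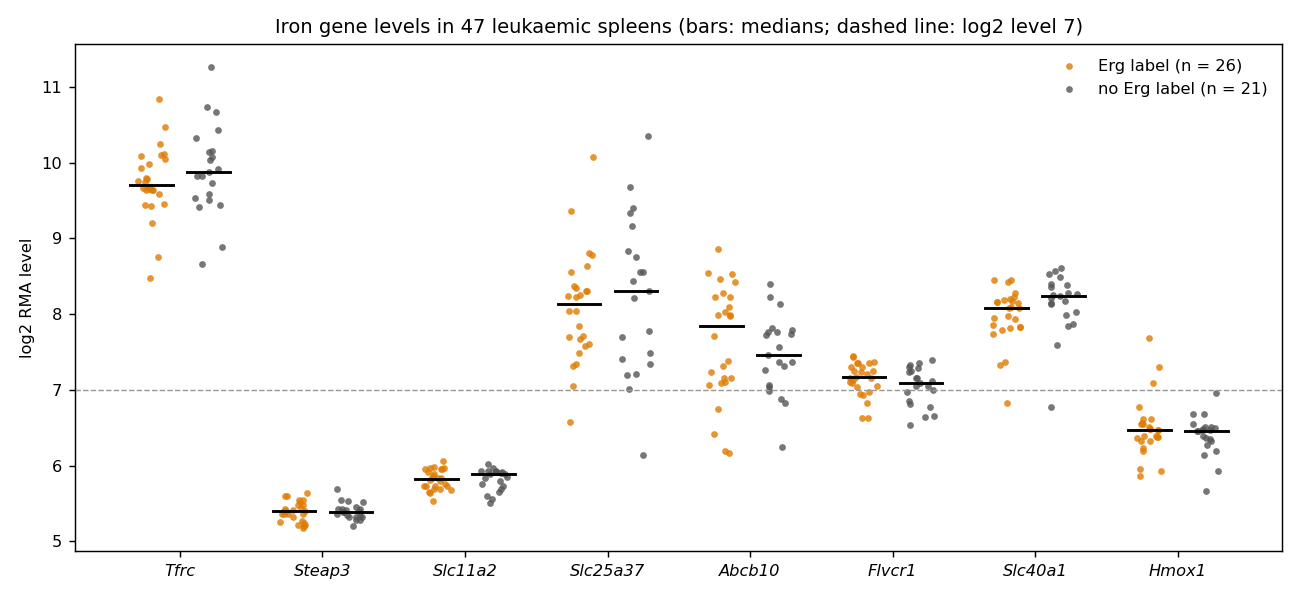
Log2 RMA level of the 8 iron genes (y axis) by gene (x axis), 1 point per array, with the 26 Erg label spleens to the left of the 21 spleens without the label; black bars are medians and the dashed line is log2 level 7. Slc25a37 spread from 6.14 to 10.35, while Steap3 and Slc11a2 stayed between 5.18 and 6.06, and the 2 groups overlapped for every gene.

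No member differed between the labelled groups beyond the spread between mice. In limma with line and sex as covariates, the Erg label group minus the group without the label differed by -0.20 ± 0.16 (SE) for Tfrc, -0.20 ± 0.26 for Slc25a37, 0.16 ± 0.20 for Abcb10, -0.18 ± 0.12 for Slc40a1 and 0.12 ± 0.10 for Hmox1 on the log2 scale (n = 26 and 21, limma adjusted p = 0.999 for each). The remaining 3 differences lay between -0.014 and 0.063. Of 18178 tested genes, 0 (0%) were called in either direction at an adjusted p below 0.05 in limma, and 666 had an unadjusted p below 0.05. In the 23 arrays that matched their sex label the differences were -0.04 for Tfrc, 0.22 for Slc25a37, -0.036 for Abcb10, -0.052 for Slc40a1 and 0.32 for Hmox1 (limma adjusted p = 1 for each). The sign for Slc25a37 and Abcb10 therefore differed between the full set and these arrays.

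Line, sex and age gave no call either. Line 6113 minus line 6070 ran from -0.18 (Slc25a37) to 0.13 (Hmox1) over the 8 members, and female minus male labels from -0.21 (Slc25a37) to 0.11 (Abcb10), with limma adjusted p of at least 0.998 for each. The largest slope on the age label among the members was 0.009 log2 units per unit of age (Slc25a37, SE 0.010, limma adjusted p = 1.00). The Erg difference was also not distinguishable between the lines for any member (interaction, smallest adjusted p of a member 0.72 in limma, for Steap3). In each of these fits 0 of 18178 genes (0%) were called, while 540 had an unadjusted p below 0.05 for line, 460 for sex, 688 for age and 1286 for the interaction. The Erg label groups differ in age as listed above, and with age added as a covariate the Erg difference of Hmox1 was -0.00098 and that of Slc40a1 -0.29 (limma adjusted p = 0.999 and 0.993).

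Tfrc and Slc25a37 rose and fell together across the 47 spleens, and this was the closest relation among the members. Pearson's r was 0.80 and Spearman's rho 0.76 (each permutation p = 1e-05, the smallest that 100000 resamples can give; limma adjusted p = 6.92e-09). It was 0.75 without the 2 arrays farthest from the Tfrc median, 0.80 within each line, 0.79 among the 33 arrays with the number 9 in their tumour identifier and 0.90 among the 11 with the number 7. The array with the highest Tfrc (11.26) also had the highest Slc25a37 (10.35), in a spleen of line 6070 without the Erg label. In bulk tissue, fewer cells of a type and less RNA per cell cannot be told apart, which holds for every relation given here.

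Of the 28 pairs of members, 6 were called positive and 0 negative, where a pair was called when both limma fits, of each gene on the other, had an adjusted p below 0.05 over all 18177 other genes. A further count by unadjusted permutation p below 0.05 gave 8 pairs for r and 11 for rho. By 1 of these 2 fits, of every gene on the member, the share of all genes called positive was 2.97% for Tfrc, 6.05% for Steap3, 19.3% for Slc11a2, 3.71% for Slc25a37, 15.5% for Abcb10, 8.3% for Flvcr1, 1.16% for Slc40a1 and 0.226% for Hmox1. The shares called negative were 3.53%, 7.11%, 12.1%, 10.2%, 13.1%, 2.77%, 2.78% and 0% in the same order. The rule for pairs asks for both fits and was not run for all genes, so its own share can be no larger than these. A call against Slc11a2 or Abcb10 was common among all genes, and a positive call against Tfrc or Slc25a37 less so. With each array centred on its brighter genes, which shifts arrays by -0.24 to 0.097 log2 units, these splits changed. The counts positive and negative were then 6138 and 275 for Steap3 (in place of 1099 and 1292), 1418 and 6961 for Abcb10 (2821 and 2378), 885 and 1020 for Slc11a2 (3505 and 2194) and 1454 and 1273 for Slc25a37 (675 and 1855). They were 399 and 712 for Tfrc (539 and 642), 81 and 395 for Slc40a1 (211 and 506), 178 and 58 for Flvcr1 (1508 and 504) and 126 and 4 for Hmox1 (41 and 0).

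Abcb10 was part of 3 of the called pairs. Its r was 0.52 with Slc11a2 (rho 0.54, limma adjusted p = 0.00118), 0.50 with Tfrc (rho 0.41, adjusted p = 0.010) and 0.44 with Steap3 (rho 0.47, adjusted p = 0.022), all with n = 47. Slc11a2 was also related to Flvcr1 (r = 0.45, rho 0.43, limma adjusted p = 0.020) and to Steap3 (r = 0.42, rho 0.49, limma adjusted p = 0.034). Permutation p-values of r for these 5 pairs lay between 0.00016 and 0.00377. They were less stable than Tfrc with Slc25a37: within line 6113 and line 6070 the r of Abcb10 with Tfrc was 0.38 and 0.61, with Slc11a2 0.64 and 0.40, and with Steap3 0.64 and 0.26. Without the 2 arrays farthest from the Tfrc median, the r of Tfrc with Abcb10 was 0.40 (limma adjusted p = 0.099). With each array centred, the r was 0.17 for Steap3 with Abcb10, 0.31 for Slc11a2 with Abcb10, 0.32 for Slc11a2 with Flvcr1 and 0.32 for Steap3 with Slc11a2, and none of these 4 was called (limma adjusted p from 0.16 to 0.37).

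Slc25a37 and Abcb10, whose products act together at the mitochondrial membrane, were not called together over the 47 arrays. Their r was 0.13 and their rho -0.006 (permutation p = 0.40 and 0.97, limma adjusted p = 0.64), although both were related to Tfrc. With the B cell and T/NK marker means as covariates the r was 0.57 (limma adjusted p = 0.0027), and with the erythroid and macrophage means it was -0.41 (adjusted p = 0.084). Slc25a37 with Flvcr1 gave r = -0.35 (rho -0.32, limma adjusted p = 0.091), which was called at -0.42 with the labels as covariates (adjusted p = 0.041).

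**Figure D2:**
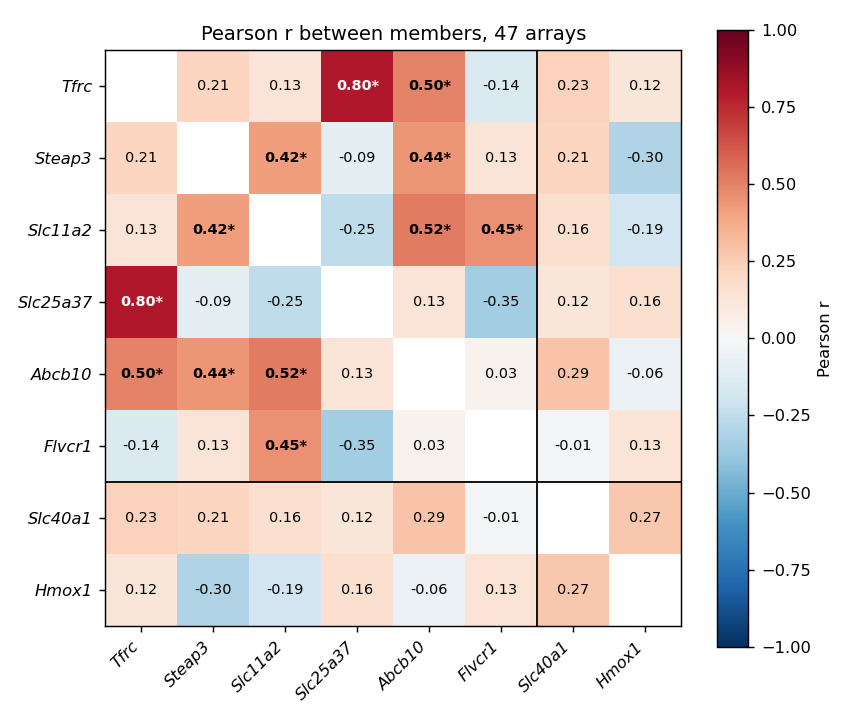
Pearson r between the 8 members over 47 arrays, with both axes listing the genes and colour giving r from -1 to 1; bold values with a star mark the 6 called pairs, and lines set Slc40a1 and Hmox1 apart from the other 6 genes. The value for Tfrc with Slc25a37, 0.80, stands above all others, and no value of the 12 pairs across the lines is called.

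No opposition between the uptake and the recycling genes was called. Counted as uptake genes here were the 6 members other than Slc40a1 and Hmox1, although Flvcr1 exports haem. The 12 pairs of Slc40a1 or Hmox1 with the 6 other members had r between -0.30 (Steap3 with Hmox1) and 0.29 (Abcb10 with Slc40a1), and 0 of the 12 were called by limma. Each call also needed the fit of all genes on Slc40a1 or on Hmox1. Those fits called 1.16% and 0.226% of all genes positive, and 2.78% and 0% negative. With so few calls among all genes, the count cannot show that uptake and recycling genes are not opposed. Slc40a1 and Hmox1 themselves had r = 0.27 and rho 0.31 (permutation p = 0.072 and 0.033, limma adjusted p = 0.66). One array bore on the Hmox1 values: replicate 16 of the Erg label group, of line 6113, had the lowest Tfrc (8.48) and the highest Hmox1 (7.68) of all 47. Its erythroid marker mean stood at -3.06 SD and its macrophage marker mean at 2.26 SD, counted from the average of all arrays. Tfrc with Hmox1 had r = 0.12 and rho 0.36 over all arrays (permutation p = 0.43 and 0.015), and r = 0.43 without the 2 arrays farthest from the Tfrc median or 0.49 without the 2 farthest from the Hmox1 median. Neither was called over all genes (limma adjusted p = 0.91 with all arrays).

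**Figure D3:**
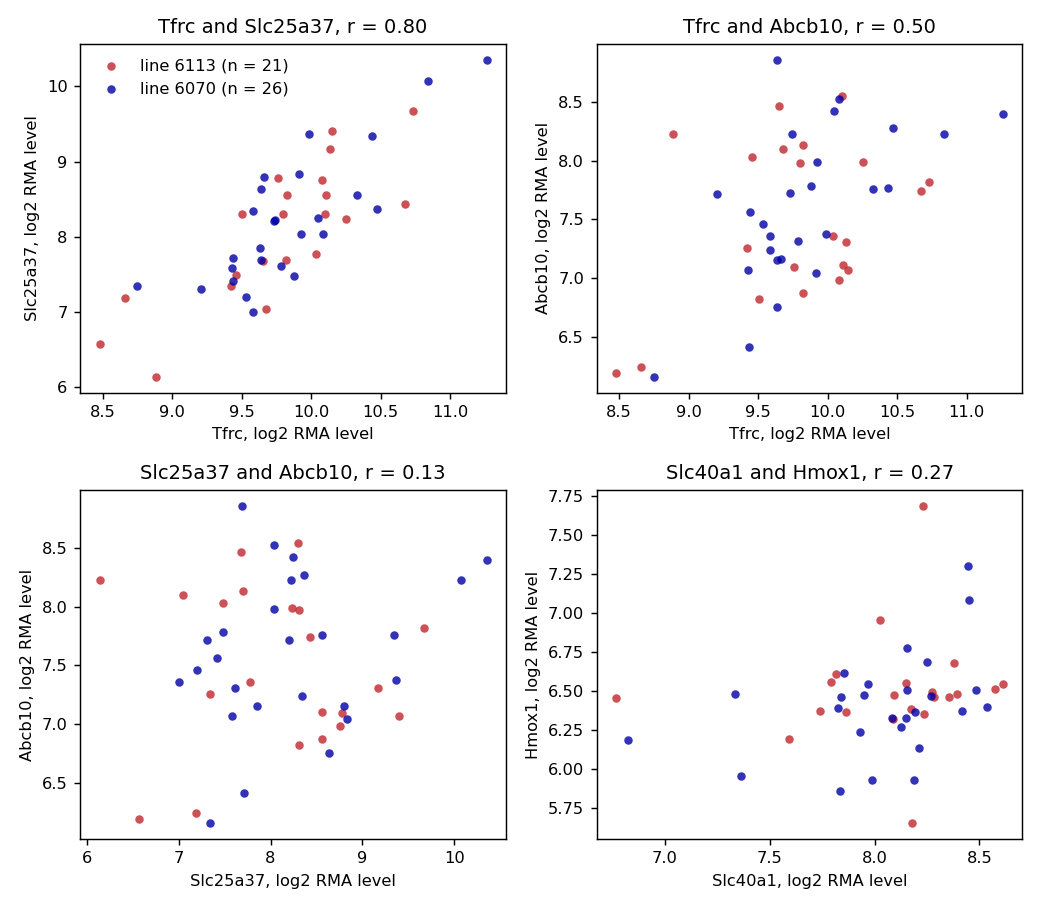
Log2 RMA levels of 4 pairs of members (x and y axes), 1 point per array, with line 6113 (n = 21) in red and line 6070 (n = 26) in blue. Tfrc and Slc25a37 lie along a line (r = 0.80), Slc25a37 and Abcb10 form a cloud (r = 0.13), and the array with Hmox1 at 7.68 stands alone in the plot against Slc40a1.

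Against the mean of the 22 erythroid markers, the members split. Abcb10 followed it most closely (r = 0.86, rho 0.85, limma adjusted p = 9.67e-13), then Tfrc (r = 0.73, rho 0.59, adjusted p = 2.47e-07), Slc11a2 (r = 0.59, rho 0.64, adjusted p = 0.00017) and Steap3 (r = 0.46, rho 0.45, adjusted p = 0.0058). Slc40a1 (r = 0.37, adjusted p = 0.037) and Slc25a37 (r = 0.36, adjusted p = 0.044) were called as well, with rho of only 0.22 and 0.17. Flvcr1 (r = 0.07) and Hmox1 (r = -0.065) were not (limma adjusted p = 0.77 and 0.79). By this fit 14.3% of genes were called positive and 13.4% negative. These belong to 80 relations of the 8 members with 10 list means. The r of Hmox1 with the erythroid mean was not stable, and its rho was 0.20 (permutation p = 0.18). With the 2 most extreme arrays dropped, its r was 0.28 (extreme in the erythroid mean) or 0.31 (extreme in Hmox1). By line it was -0.39 in line 6113 and 0.29 in line 6070. The r near 0 therefore does not show that Hmox1 and the erythroid markers are unrelated.

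The weak relation of Slc25a37 with the erythroid mean stood beside a strong one with some of its genes. Its r with Slc4a1, the anion exchanger band 3 of the red cell membrane, was 0.94 (limma adjusted p = 3.76e-19), the closest of all genes compared. It was 0.71 with Epb42, a membrane skeleton protein of the red cell, and 0.67 with Trim10, but 0.09 with Klf1, 0.03 with Epor and -0.13 with Gata1. Abcb10 stood the other way: its r was 0.11 with Slc4a1, 0.82 with Gata1, 0.84 with Klf1 and 0.80 with Epor. Membrane and skeleton genes lay on both sides, since Ank1 had r = 0.83 with Abcb10 and 0.37 with Slc25a37, Sptb 0.75 and 0.42, Rhag 0.71 and 0.37 and Kel 0.64 and 0.56. Of the 22 erythroid markers, 19 had a higher r with Abcb10 and 3 (Slc4a1, Epb42 and Trim10) a higher r with Slc25a37. The 19 include Sptb, Xk and Hba-a1, which were above log2 7 on no array. Hba-a1 lay at the floor (4.99 to 5.19), and its r values were nearly equal (0.308 with Abcb10 and 0.304 with Slc25a37). Tfrc had r = 0.81 with each of Slc4a1, Epb42 and Trim10, 0.54 with Klf1, 0.47 with Epor and 0.35 with Gata1, the last of which was not called (limma adjusted p = 0.12). Slc11a2 resembled Abcb10 in this, with r = 0.72 for Gata1, 0.69 for Klf1 and -0.22 for Slc4a1. These values describe genes of the same 47 arrays, and the difference between the r values was not tested.

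**Figure D4:**
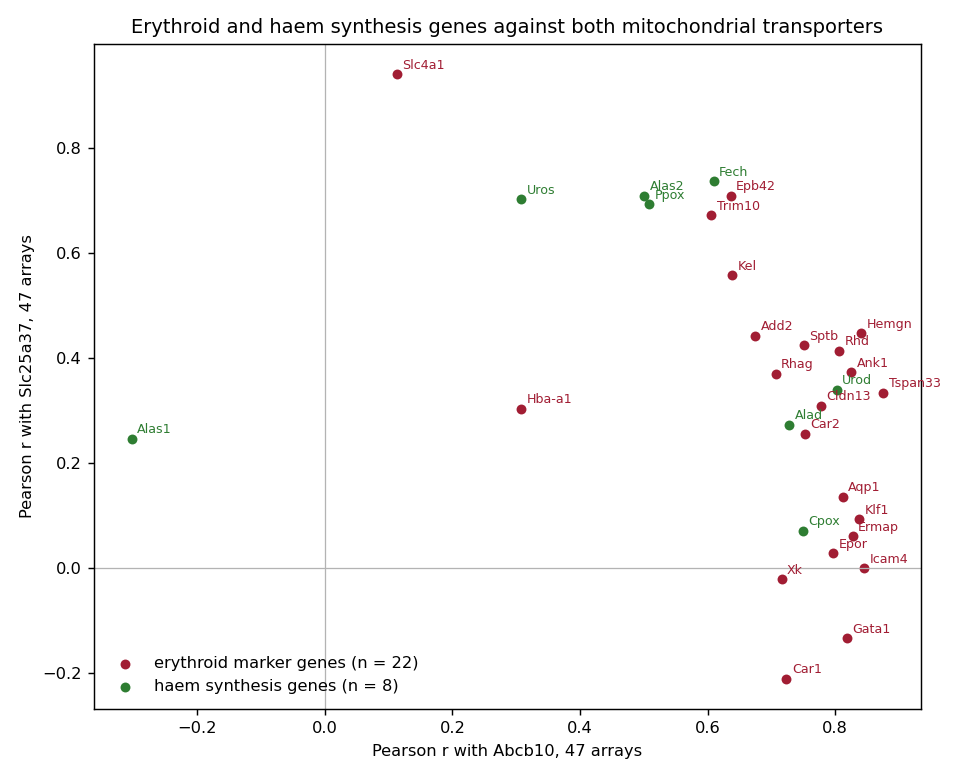
Pearson r with Abcb10 (x axis) and with Slc25a37 (y axis) over 47 arrays, 1 point per gene, for the 22 erythroid markers in red and the 8 haem synthesis genes in green. Slc4a1 lies at the top left (0.11 and 0.94), while Gata1 and Klf1 lie at the lower right, at 0.82 and -0.13 and at 0.84 and 0.09.

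Haem synthesis genes followed Tfrc. Its r with the mean of the 8 measured genes was 0.90 (rho 0.81, permutation p = 1e-05, limma adjusted p = 1.03e-14) and was 0.90 in line 6113 and 0.91 in line 6070. Over all arrays 6.5% of genes were called positive with this mean and 6.54% negative. Of the 8 genes, 7 were called positive with Tfrc, and the median r was 0.70, against -0.0071 over all genes. Fech, the ferrochelatase that inserts iron into the ring, had r = 0.88 (adjusted p = 1.22e-12), Alas2, the first and rate-limiting enzyme of the erythroid pathway, 0.81 (3.97e-09), and Ppox 0.81 (4.87e-09), all by limma. Abcb10 was called with 6 of the 8, led by the decarboxylase Urod (r = 0.80), with Cpox at 0.75 and Alad at 0.73. Slc25a37 was called with 4 of the 8, led by Fech (r = 0.74), Alas2 (0.71), Uros (0.70) and Ppox (0.69), while its r with Cpox was 0.07. Slc11a2 was called with 3, Steap3 with 2, Slc40a1 with 1, and Flvcr1 and Hmox1 with 0. Against the shares of all genes called positive with each member, given above, these counts are 87.5% for Tfrc (2.97% of all genes), 75% for Abcb10 (15.5%), 50% for Slc25a37 (3.71%), 37.5% for Slc11a2 (19.3%), 25% for Steap3 (6.05%) and 12.5% for Slc40a1 (1.16%). Alas1, the enzyme form of non-erythroid tissues, was called with no member. With the haem synthesis mean, Hmox1 had r = 0.097 (limma adjusted p = 0.72) but rho 0.38 (permutation p = 0.0092). Its r was 0.47 with the 2 most extreme arrays of that mean dropped, and 0.48 with those of Hmox1 dropped. By line it was -0.24 in line 6113 and 0.44 in line 6070.

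Among 45 other measured genes of iron handling, Slc11a2 was called positive with 15 and negative with 5, Abcb10 with 14 and 4, Steap3 with 7 and 5, Slc25a37 with 7 and 0, and Tfrc with 6 and 0. The counts were 3 and 1 for Flvcr1, 3 and 1 for Slc40a1 and 1 and 0 for Hmox1. As positive shares these are 33.3% for Slc11a2 (19.3% of all genes), 31.1% for Abcb10 (15.5%), 15.6% for Steap3 (6.05%), 15.6% for Slc25a37 (3.71%), 13.3% for Tfrc (2.97%), 6.67% for Flvcr1 (8.3%), 6.67% for Slc40a1 (1.16%) and 2.22% for Hmox1 (0.226%). The mean of these 45 genes was called with Abcb10 (r = 0.64), Tfrc (0.54), Slc40a1 (0.51, with a rho of 0.32) and Slc11a2 (0.45), with limma adjusted p from 0.00011 to 0.014, where 10.3% of genes were called positive and 7.03% negative. Of the 45 genes, 20 were above log2 7 on no array, among them the hormone gene Hamp. Tfr2, the second transferrin receptor, which erythroid cells carry, had r = 0.78 with Slc11a2 (limma adjusted p = 3.54e-08) and 0.60 with Steap3 (0.0023). Slc48a1, a haem transporter of lysosomes, followed Slc11a2 at 0.73 (3.38e-07). Glrx5, a glutaredoxin of mitochondrial iron-sulfur cluster assembly, followed Abcb10 at 0.86 (3.48e-12) and Steap3 at 0.57 (0.0033), and Tmem14c, a mitochondrial porphyrin transporter, followed Abcb10 at 0.81 (6.47e-10). Isca1, another gene of cluster assembly, followed Tfrc at 0.80 (7.67e-09).

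The share called negative was 11.1% with Slc11a2 (12.1% of all genes), 8.89% with Abcb10 (13.1%) and 11.1% with Steap3 (7.11%), so negative calls with Slc11a2 and Abcb10 were not more frequent in the list than among all genes. Spic, a transcription factor of red pulp macrophages, had r = -0.62 with Steap3 (limma adjusted p = 0.0017) and -0.49 with Abcb10 (0.0026), although it stayed below log2 7 on all arrays. Cp, the plasma ferroxidase ceruloplasmin, had r = -0.63 with Slc11a2 (2.70e-05), and Slc39a14, a transporter of free iron and zinc, -0.70 (1.34e-06). Fbxl5, the iron-sensing subunit that marks iron regulatory proteins for degradation, had r = -0.61 with Slc11a2 (4.99e-05). Slc39a14 (median 5.28) and Fbxl5 (median 6.11) were above log2 7 on no array either, and Slc11a2 itself lay close to the floor. Aco1, which encodes iron regulatory protein 1, led the genes positive with Flvcr1 (r = 0.57, limma adjusted p = 0.0020). Ncoa4, the receptor that delivers ferritin for breakdown, was the 1 gene of the 45 negative with Flvcr1 (r = -0.44, adjusted p = 0.024). Nfe2l2, the transcription factor of the antioxidant response, led those positive with Slc40a1 (r = 0.51, adjusted p = 0.0097), and Hfe, a regulator of iron uptake, was the 1 gene positive with Hmox1 (r = 0.54, adjusted p = 0.039). Hfe too was above log2 7 on no array. On ranks 0 genes in all were called with Slc40a1 (717 otherwise) or with Hmox1 (41 otherwise), so these last relations were not called there.

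Fitted alone, the mean of 20 macrophage markers was called positive with Hmox1 and with no other member. The r was 0.59 (rho 0.52, permutation p = 2e-05 and 0.00023, limma adjusted p = 0.00019), 0.62 in line 6113 and 0.53 in line 6070, and 0.41 without the 2 arrays farthest from its own median. All 20 marker genes had an r above 0 with Hmox1, up to 0.60 for C1qa, a complement gene of tissue macrophages, and 5 were called. Slc25a37 had r = 0.34 and rho 0.47 with the mean (permutation p = 0.021 and 0.001, limma adjusted p = 0.063), with 16 of the 20 genes above 0 and 4 called. Slc40a1 had r = 0.20 and rho 0.30 (permutation p = 0.18 and 0.041, limma adjusted p = 0.35). Of the 20 genes, 14 had an r above 0 with it and 2 were called, and the highest were Cd5l, a secreted protein of tissue macrophages (0.53), and Adgre1 (0.47), while the r with Csf1r was 0.02. Steap3 (r = -0.44), Slc11a2 (r = -0.59) and Abcb10 (r = -0.41) were called negative with the macrophage mean, with limma adjusted p of 0.011, 0.00019 and 0.016. Of all genes, 12.4% were called positive and 15.5% negative in the fit of this mean. The single marker genes were called by the fits on each member instead. There the positive shares were 25% of the 20 markers for Hmox1 (0.226% of all genes), 20% for Slc25a37 (3.71%) and 10% for Slc40a1 (1.16%). The negative shares were 40% for Steap3 (7.11% of all genes), 55% for Slc11a2 (12.1%) and 55% for Abcb10 (13.1%). Part of the list went the other way. With Abcb10, 10% of the markers were called positive (15.5% of all genes). Of the 20, 6 had an r above 0 with it, up to 0.48 for Vsig4 and for Cd5l. With Steap3 4 and with Slc11a2 2 were above 0. On ranks, 0 genes were called with Hmox1 or with Slc40a1.

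The erythroid and macrophage means were themselves opposed across the arrays (r = -0.42), so both were put into 1 fit, as slopes in log2 units per SD of each mean. On the erythroid mean, 5 of 8 members had a positive slope past the threshold and 0 a negative one, where 9.62% and 9.96% of genes did. The slopes were 0.56 ± 0.05 (SE) for Abcb10 (limma adjusted p = 6.71e-11), 0.53 ± 0.11 for Slc25a37 (0.00032), 0.48 ± 0.05 for Tfrc (9.66e-10), 0.21 ± 0.05 for Slc40a1 (0.0031) and 0.056 ± 0.016 for Slc11a2 (0.0095). On the macrophage mean, 4 members were called positive and 1 negative, where 9.45% and 10.1% of genes were. The positive slopes were 0.52 ± 0.11 for Slc25a37 (limma adjusted p = 0.00067), 0.23 ± 0.04 for Hmox1 (0.00019), 0.21 ± 0.05 for Tfrc (0.0027) and 0.17 ± 0.05 for Slc40a1 (0.023), and the negative one was -0.056 ± 0.016 for Slc11a2 (0.0099). With the arrays centred, the counts over all genes became 1019 positive and 7014 negative on the erythroid mean (in place of 1744 and 1806) and 2215 and 1253 on the macrophage mean (1714 and 1832), and the Slc11a2 slopes were no longer called.

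The test of the difference between both slopes set the members apart. The erythroid slope was higher than the macrophage slope by 0.60 ± 0.06 for Abcb10 (limma adjusted p = 4.28e-11), 0.27 ± 0.06 for Tfrc (0.00013), 0.11 ± 0.02 for Slc11a2 (1.05e-06) and 0.076 ± 0.018 for Steap3 (0.00073). It was lower by -0.16 ± 0.05 for Hmox1 (0.0075). By this test 4 of 8 members were called positive and 1 negative, where 18.6% and 15.3% of all genes were (3371 and 2776 genes, or 1772 and 11431 with the arrays centred). For Slc25a37 (0.014 ± 0.117, adjusted p = 0.95), Slc40a1 (0.047 ± 0.058, adjusted p = 0.58) and Flvcr1 (0.070 ± 0.039, adjusted p = 0.17) no difference was called. With the B cell and T/NK means added, the difference for Slc25a37 was 0.66 (adjusted p = 9.57e-05), while those for Steap3 (0.055, adjusted p = 0.24) and Slc11a2 (0.067, adjusted p = 0.080) were no longer called. With that addition the macrophage slopes of Tfrc, Slc25a37 and Slc40a1 were 0.093, 0.19 and 0.14 and no longer called (limma adjusted p = 0.37, 0.25 and 0.077), and neither was the erythroid slope of Slc40a1 (0.080, adjusted p = 0.33). The Slc11a2 slopes, 0.039 on the erythroid mean and -0.028 on the macrophage mean, were not called either (limma adjusted p = 0.20 and 0.49). B cell markers moved with the macrophage mean, as 10 of 11 had a positive slope on it, with a median of 0.57, and their part in the slopes of Slc25a37 was not tested further. In line 6070 alone the Hmox1 difference was -0.069 (adjusted p = 0.54), and in line 6113 alone -0.22 (adjusted p = 0.032). Replicate 16 of the Erg label group, of line 6113, had the highest Hmox1 (7.68). It stood at -3.06 SD in the erythroid mean and 2.26 SD in the macrophage mean. The fit over both lines was not run without this array, so how far the Hmox1 difference rests on it was not tested.

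**Figure D5:**
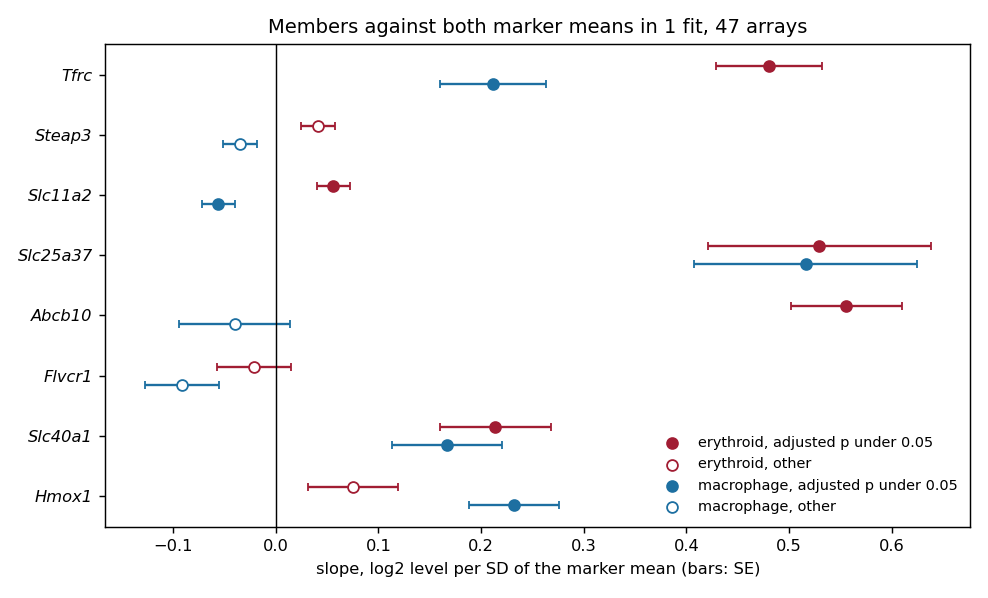
Slopes of the 8 members on the erythroid mean (red) and the macrophage mean (blue) from 1 limma fit over 47 arrays, in log2 level per SD of the mean (x axis) by gene (y axis); bars are SE and filled points have an adjusted p below 0.05. Abcb10 has an erythroid slope of 0.56 and a macrophage slope of -0.04, Slc25a37 has 0.53 and 0.52, and Hmox1 0.075 and 0.23.

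In the same fit, 7 of 8 haem synthesis genes and 16 of 45 other iron genes had a positive erythroid slope past the threshold, with 0 and 1 negative. Of all genes, 9.62% were positive and 9.96% negative on this mean. The iron genes were led by Blvrb, a biliverdin reductase that is abundant in red cells, at 0.69 ± 0.04 (limma adjusted p = 2.50e-16), and Isca1 at 0.45 ± 0.03 (5.96e-15). The haem synthesis genes were led by Urod at 0.53 ± 0.04 (5.50e-15) and Fech at 0.71 ± 0.06 (3.97e-13). On the macrophage mean, 12 of the 45 were positive and 3 negative, where 9.45% and 10.1% of all genes were. Negative slopes were thus not more frequent in the list than among all genes. Cp led at 0.44 ± 0.05 (limma adjusted p = 2.57e-08), with Hfe at 0.18 ± 0.02 (3.68e-07) and Spic at 0.24 ± 0.03 (2.43e-06), and Tfr2 was lowest at -0.36 ± 0.08 (0.0011). Hfe and Spic were above log2 7 on no array.

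Other list means moved with single members. Slc25a37 rose with the neutrophil mean (r = 0.45, rho 0.45, limma adjusted p = 0.010, where 7.54% of genes were called positive and 14.6% negative) and with the B cell mean (r = 0.44, rho 0.44, adjusted p = 0.0085, where 12.2% were positive and 18.9% negative). Slc11a2, Abcb10 and Flvcr1 fell as the B cell mean rose (r = -0.62, -0.49 and -0.45, limma adjusted p = 4.47e-05, 0.0024 and 0.0057). Hmox1 rose with the mean of other targets of the antioxidant response (r = 0.48, rho 0.46, limma adjusted p = 0.011), as did Abcb10 (r = 0.51, adjusted p = 0.0065) and Tfrc (r = 0.48, adjusted p = 0.011), where 7.82% of genes were called positive and 3.77% negative. That list shares Fth1, the ferritin heavy chain gene, with the list of other iron genes. Singly, 0 of its 11 genes were called with Hmox1, where 0.226% of all genes were called positive. Of the 11, 10 had an r above 0 with Hmox1, up to 0.43 for Fth1, but the r was -0.03 with Nqo1 and 0.015 with Gclm. On no array were 5 of the 11 above log2 7. The cell cycle mean was called with Slc11a2 only (r = 0.43, limma adjusted p = 0.041, where 4.92% were positive and 1.74% negative), and the megakaryocyte mean with no member (limma adjusted p of 0.13 or more, where 2.66% were positive and 1.21% negative).

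The T and NK mean was called negative with 4 members. Abcb10 (r = -0.57, rho -0.55, limma adjusted p = 0.00027), Steap3 (-0.45, rho -0.52, adjusted p = 0.0085) and Slc11a2 (-0.41, rho -0.59, adjusted p = 0.019) were negative by r and by rho, with rho farthest from r for Slc11a2. The r of Slc11a2 was -0.23 in line 6113 and -0.55 in line 6070. The r of Slc40a1 was -0.67 (permutation p = 1e-05, limma adjusted p = 6.04e-06, where 10.6% of genes were called positive and 13.2% negative), -0.75 in line 6113 and -0.64 in line 6070. The rho of Slc40a1 was only -0.23 (permutation p = 0.13), and r was closer to 0, at -0.44, once the 2 arrays most distant from the median were left out, so the relation rests largely on few arrays. The T cell receptor subunit gene Cd3d was above log2 7 on 9 arrays. The array with the lowest Slc40a1 (6.77), replicate 12 of the group without the Erg label, lay 2.79 SD above the mean in the T and NK mean. On ranks, 0 genes in all were called with Slc40a1, in place of 717.

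The genes most like each member, by Pearson's r over the 47 arrays among 5411 genes with a mean above log2 6 (5412 for Steap3 and Slc11a2), differed from member to member. After Fech, Tfrc was closest to the globin gene Hbb-b2 (r = 0.85) and to Mgst3 (0.84), Tent5c (0.83) and Cpeb4 (0.83), and least like Rpl37 (-0.77), Arl1 (-0.76) and Atp5g2 (-0.73). For Slc25a37 the list after Slc4a1 was Xpo7 (0.91), Bpgm, the enzyme that makes bisphosphoglycerate in red cells (0.86), Fam220a (0.86) and Cdr2 (0.83), with Eral1 (-0.79), Dph5 (-0.76) and Trmt112 (-0.76) at the other end. Abcb10 was closest to Arrb1 (0.92), Smox (0.91), Stom, a red cell membrane protein (0.90), Marchf8 (0.88) and Gid8 (0.88), and least like Mpnd (-0.82), Snx6 (-0.80) and Tbc1d10c (-0.79). The glycolytic enzyme gene Pfkm (0.84) led for Slc11a2, followed by Sun1 and Eif2b4 (0.82 each) and by Ftsj1 and Svbp (0.81 each), and Cers5 (-0.81), Vim (-0.80) and Itgav (-0.78) were lowest.

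For the remaining 4 members the closest genes had a lower r. Steap3 had Mideas (0.65), Tspo2 and Ermap (0.64 each), D2hgdh (0.62) and Svbp (0.61), with Nnt (-0.71), Rala (-0.66) and Ddt (-0.65) opposite. Flvcr1 had Utp4 and Eftud2 (0.71 each), Cad (0.70), Gars (0.69) and Nop2 (0.69), with Bach2 (-0.66), Smim14 (-0.66) and Hsd17b11 (-0.65) opposite. Slc40a1 had Arhgap21 (0.71), Bcl11a (0.68), Ptbp3 (0.67), Mid1ip1 (0.64) and Lyl1 (0.63), with Prmt7 (-0.76), Saraf (-0.69) and Txndc15 (-0.68) opposite. Hmox1 had Ms4a7 (0.65), Tmem86a (0.64), C1qa (0.60), Epb41l3 (0.59) and Fcna (0.58), and its lowest, Luc7l3 (-0.52), Zdhhc17 (-0.49) and Bub3 (-0.48), were not called (limma adjusted p = 0.064, 0.10 and 0.11).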

How the data were processed

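The authors deposited log2 values from RMA (affy package, R 2.15), per the labels and the submitters' processing notes. This method corrects background, forces all arrays to 1 distribution and fits 1 value per probe set, so a shift shared by all genes of an array is removed. Of 45101 probe sets, 34945 named 1 gene in the platform annotation, which gave 18193 genes, of which 18178 were tested. RNA was labelled from its 3′ end, per the labels' protocols. Precision is set by the number of mice.

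Fits used limma 3.58.1 in R 4.3.3 (lmFit, eBayes) and Benjamini-Hochberg adjustment across the genes of each fit, called at 0.05. Each member was a covariate for all other genes, and the erythroid and macrophage marker means, each scaled to an SD of 1, entered 1 fit, without the genes of those means in the counts. Pearson's r and Spearman's rho have two-sided permutation p-values of 100000 resamples. Member levels, label comparisons and list means used the same 47 arrays. The fits were tested on simulated data, with arrays shuffled and 200 genes changed. For the member fits only Tfrc served as the shuffled covariate. The results of these simulations are not given here.

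The members and lists were chosen with earlier results of these data known. The lists were other iron genes (45 of 50 measured), haem synthesis (8 of 9), erythroid (22 of 26), macrophage (20 of 20), neutrophil (12 of 14), B cell (11 of 12), T and NK (13 of 14), megakaryocyte (10 of 12), cell cycle (19 of 20) and antioxidant targets (11 of 13). Named were the members, up to 4 iron or haem genes per direction and fit with the smallest adjusted p (2 by raw p if none passed), the 5 highest and 3 lowest r per member, and marker genes. Alternatives changed the arrays, covariates, probe sets, filter and scaling. Of the named symbols, 0 changed when updated through the RefSeq gene table.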

Additional observations from a re-analysis of the deposited data

Results flagged for a closer look

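In the 16 groups of 4 to 10 mice tested (8 members in the Erg label mice of line 6113 and in the line 6070 mice without the label), 2 values stood far from the others of their group, where chance gives about 1 in 20 groups. Tfrc was at 8.48 in 1 of the 9 Erg label mice of line 6113, and the next lowest was 9.46. Hmox1 was at 7.68 in 1 of the same 9 mice, and the next highest was 6.61. Both values belong to replicate 16 of the Erg label group, whose erythroid mean stood at -3.06 SD and whose macrophage mean stood at 2.26 SD from the average of all arrays. Their part in these values was not tested.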

How the results depend on the processing

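No paired analysis was possible because replicate numbers follow the order of the samples and pair no mice. Tfrc with Slc25a37 stayed called under all 15 alternatives (r from 0.75 to 0.90). With the erythroid and macrophage means as covariates, Tfrc with Abcb10 turned to r = -0.37 (limma adjusted p = 0.13) and Slc11a2 with Abcb10 to -0.017 (adjusted p = 0.98); the cause was not tested. In all, 32 pair values lost and 4 gained a call, as did 33 and 8 slopes; 42 pair values, 12 slopes and 11 label differences changed sign, of which only the 2 above had been called. The label fits called 0 genes under every alternative. Fits on 1 line were added after seeing the data, and they, the stricter filter and the fits on number 9 only have fewer arrays or genes; for the rest of the counts below the cause was not tested. Steap3 and Slc11a2 lie near the floor on all arrays, and what this does to their calls was not tested.

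The 6 positive pairs became 3 without the 2 farthest arrays, 3 with identifier number 9 only, 3 with B cell and T/NK means, 1 with erythroid and macrophage means, 2 among genes above log2 7, 2 with arrays centred, 1 in line 6070 and 2 in line 6113. Negative pairs (0 otherwise) were 1 with the labels, 1 with erythroid and macrophage means and 1 among genes above log2 7. Genes related to Tfrc (1181) became 661 on ranks, 588 without the 2 farthest arrays, 2428 with erythroid and macrophage means, 472 above log2 7, 224 in line 6070 and 227 in line 6113. For Steap3 (2391) they became 1536 with the identifier number as a block, 6 with B cell and T/NK means, 3 with erythroid and macrophage means, 741 above log2 7, 6413 with arrays centred and 0 in each line. For Slc11a2 (5699) they became 545 with B cell and T/NK means, 950 with erythroid and macrophage means, 1617 above log2 7, 1905 centred, 2904 in line 6070 and 3141 in line 6113. For Slc25a37 (2530) they became 3978 with erythroid and macrophage means, 941 above log2 7, 826 in line 6070 and 562 in line 6113. For Abcb10 (5199) they became 790 with B cell and T/NK means, 775 with erythroid and macrophage means, 1398 above log2 7, 8379 centred and 1988 in line 6070. For Flvcr1 (2012) they became 276 with number 9 only, 1024 with the block, 233 with B cell and T/NK means, 626 with erythroid and macrophage means, 955 above log2 7, 236 centred, 81 in line 6070 and 6 in line 6113. For Slc40a1 (717) they became 0 on ranks, 2 without the 2 farthest arrays, 313 with number 9 only, 15 with B cell and T/NK means, 436 with erythroid and macrophage means, 1359 with the mean of all probe sets, 157 above log2 7, 476 centred, 228 in line 6070 and 113 in line 6113. For Hmox1 (41) they became 0 on ranks, 7 without the 2 farthest arrays, 78 with number 9 only, 9 with the block, 22 with the labels, 111 with B cell and T/NK means, 6 above log2 7, 130 centred and 0 in each line.

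With B cell and T/NK means, members with an erythroid slope past the threshold (5) became 3 and those with a macrophage slope (5) became 1, and genes with an erythroid, macrophage or difference slope (3550, 3546 and 6147) became 1478, 771 and 1421. With arrays centred, the erythroid and difference counts became 8033 and 13203. In line 6070, 3 members had a macrophage slope and 2 a difference (5 otherwise), and the 3 gene counts were 2218, 1172 and 3887. In line 6113, 3 members had an erythroid slope and 0 a macrophage slope, and the gene counts were 714, 564 and 3417.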
